A study of Saccharomyces cerevisiae with 4 samples.

Results

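The 10 genes described here encode the reductive iron uptake system of budding yeast, its vacuolar counterpart and the transcription factors Aft1 and Aft2. They were chosen by gene symbol in the platform annotation, and each had 1 probe, so they make up 10 of 5547 named genes and 10 of 6226 probes. Transcript ratios were measured on 2-colour DNA microarrays, with 1 sample in each of 4 groups. One array compared a Δsnf2 strain in the BY4741 background with wild-type BY4741. Another compared strain PSY3, in which Snf2 lacks its SnAC domain, with PSY2, the wild type that carries Snf2-2FLAG. The Δsnf2 strain is called the null and PSY3 the SnAC mutant. The other two arrays compared wild-type BY4741 with itself and PSY2 with itself. Snf2 is the ATPase of the SWI/SNF chromatin remodeler, and the FLAG label on Snf2 is an epitope tag. All strains were grown in the rich glucose medium YPD at 25 C to an optical density of 0.8, and no metal depletion or addition is stated. The labels do not say whether a strain was 1 clone, or whether each channel of a self-hybridisation had its own culture.

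Yeast takes up iron from the medium in steps. Reductases of the Fre family at the cell surface reduce ferric iron to ferrous iron. The multicopper oxidase Fet3 and the permease Ftr1 then bring it into the cell as a complex with high affinity, and Fet3 needs copper to work. Fet4 is a separate transporter of low affinity that also carries other divalent metals. Fet5 and Fth1 form a related oxidase and permease complex in the vacuolar membrane, and Smf3 moves iron out of the vacuole. Aft1 and Aft2 activate many of these genes when iron is scarce, and their activity is known to be controlled largely through the protein rather than the transcript.

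The values are log ratios of the named strain over its wild type, read as log2, with the median of all probes subtracted from each array. A value of 1 then means 2-fold above the typical gene of that array, and folds hold only if the base is 2, which the labels do not state. Every array is 1 measurement, so no value has a replicate error and no difference between strains was tested. In a whole culture, fewer cells expressing a gene and less RNA per cell cannot be told apart. The subtracted median was -0.125 for wild-type BY4741, 0.104 for PSY2, 0.004 in the null and -0.393 in the SnAC mutant, and between 5695 and 6061 probes had a value. The self-hybridisations served as a yardstick: 95% of their features lay between -0.31 and 0.30 for BY4741 and between -0.45 and 0.51 for Snf2-2FLAG. SNF2 itself (YOR290C) read -2.14 in the null and -0.19 on the BY4741 array, and had no value on the arrays of the PSY2 background. The label of the null was thus checked on its deleted gene, and that of the SnAC mutant was not.

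None of the 10 genes was 2-fold from the array median in either mutant. Over all features, 2.85% passed 2-fold in the null and 2.05% in the SnAC mutant, so a count of 0 among 10 or 9 genes is near the background. At 1.5-fold, FRE2 was lower and FET5 higher in the null, which is 2 of 10 genes against 7.54% of all features. In the SnAC mutant FRE2 was lower and FET4 higher, 2 of 9 measured genes against 5.69%. The median of the genes was 0.01 in the null and 0.20 in the SnAC mutant, where the median of all probes is 0 by construction. Their values ran from -0.87 to 0.67 and from -0.76 to 0.70, while on the wild-type arrays they ran from -0.29 to 0.27 and from -0.06 to 0.37.

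**Figure D1:**
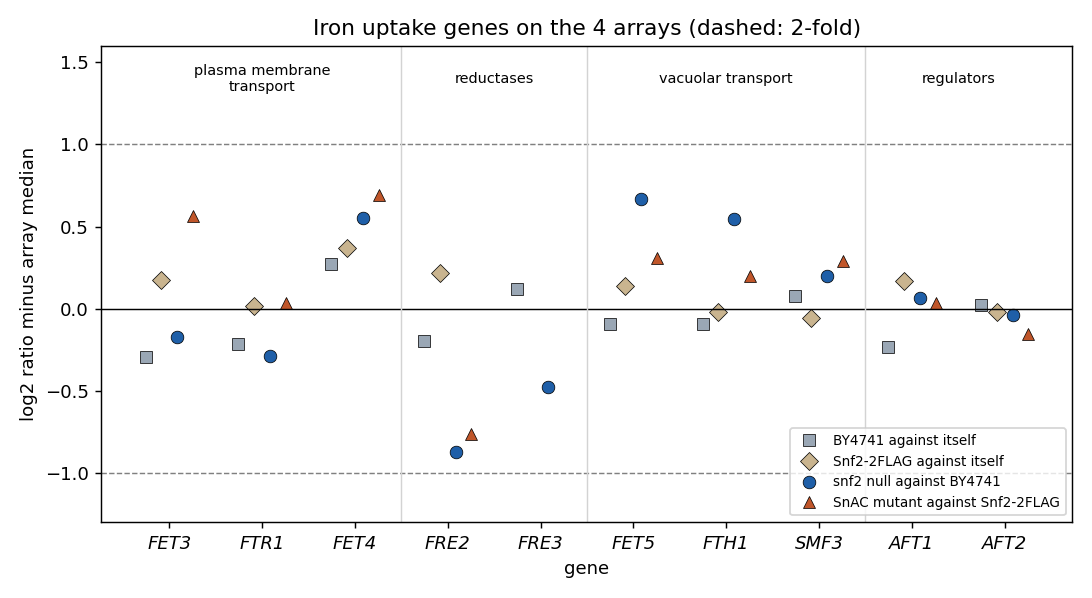
Log2 ratio minus array median of each of the 10 genes (x axis, grouped by role) on the 4 arrays, 1 symbol per array, with dashed lines at 2-fold. No symbol reaches a dashed line, FRE2 lies lowest in both mutants at -0.87 and -0.76, and FRE3 has symbols for the BY4741 background only.

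Among the reductases, FRE2 (YKL220C) had the lowest ratio of the 10 genes in both mutants. It encodes a reductase of ferric iron at the plasma membrane. FRE2 read -0.87 in the null and -0.76 in the SnAC mutant, against -0.20 on the BY4741 array and 0.22 on the Snf2-2FLAG array. Both mutant values were below those of the wild-type arrays and correspond to 1.83-fold and 1.69-fold lower. With the wild-type array of its background subtracted, FRE2 read -0.67 in the null and -0.98 in the SnAC mutant. The order of the mutants was then reversed. FRE2 ranked 111 from the lowest of 6031 features in the null and 108 of 5890 in the SnAC mutant. As deposited, with no centring, its value in the SnAC mutant was -1.153, past 2-fold, as were 2.46% of all features in that direction.

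FRE3 (YOR381W), which acts on iron bound to siderophores, read -0.475 in the null and 0.12 on the BY4741 array. It had no value on either array of the PSY2 background, where 79 of 6195 features were missing on both. A comparison of the mutants was therefore not possible for FRE3. In the null it was the second lowest of the 10 genes, 0.395 above FRE2.

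The other reductases of the family came from a list of 6 genes, FRE1 and FRE4 to FRE8. Together with FRE2 and FRE3, 8 reductase genes had a value in the null and 7 in the SnAC mutant. FRE1, FRE2 and FRE7 were at least 1.5-fold lower in both mutants, where 3.27% and 2.56% of all features were that low. None of the family passed 2-fold after centring, which is near the background of 2.85% and 2.05% of all features. As deposited, FRE1 and FRE7 read -1.125 and -1.227 in the SnAC mutant. They were then past 2-fold with FRE2, as were 2.46% of all features in that direction. FRE1, the main surface reductase of iron and copper, read -0.83 in the null and -0.73 in the SnAC mutant, against 0.21 and 0.20 on the wild-type arrays of their backgrounds. FRE7, which is induced when copper is scarce, read -0.96 and -0.83, against 0.01 and -0.02. Both were picked once their values were known. The remaining 4 listed genes lay between -0.24 and 0.16 in the mutants.

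FET3 (YMR058W) and FTR1 (YER145C), the oxidase and the permease of the high-affinity complex, differed from each other in the SnAC mutant. FET3 read -0.17 in the null and 0.56 in the SnAC mutant, against -0.29 on the BY4741 array and 0.17 on the Snf2-2FLAG array. Its values in the BY4741 background were both below 0 and those in the PSY2 background both above 0. FTR1 read -0.29 in the null and 0.03 in the SnAC mutant, against -0.22 and 0.02 on the wild-type arrays. Relative to the self-hybridisation of the same background, FTR1 was at -0.07 in the null and 0.01 in the SnAC mutant. FET3 was 0.53 above FTR1 in the SnAC mutant, and the largest distance between them on the other arrays was 0.16.

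In centred values, FET3 had the largest difference between the mutants among the 9 genes measured in both, and with the wild-type arrays subtracted FET5 had it. The null minus the SnAC mutant was -0.735, lower than for all but 0.501% of 5790 features. The central 95% of features lay between -0.37 and 0.39 and leaves 5.01% of features outside. FET3 was 1 of 9 genes outside that range. The wild-type arrays differed in the same direction for FET3, with BY4741 minus Snf2-2FLAG at -0.467, lower than for all but 2.02% of features. With each centred wild-type array subtracted, the difference between the mutants was -0.268, and 20.5% of features had a lower one. FET5 was then at 0.587, AFT1 at 0.436, FTH1 at 0.422 and FRE2 at 0.304. After this subtraction FET5 was the 1 of 9 genes outside the central 95% of features, which ran from -0.65 to 0.579 and left 5.03% outside. The part that the wild-type hybridisations take in the FET3 difference was not tested.

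**Figure D2:**
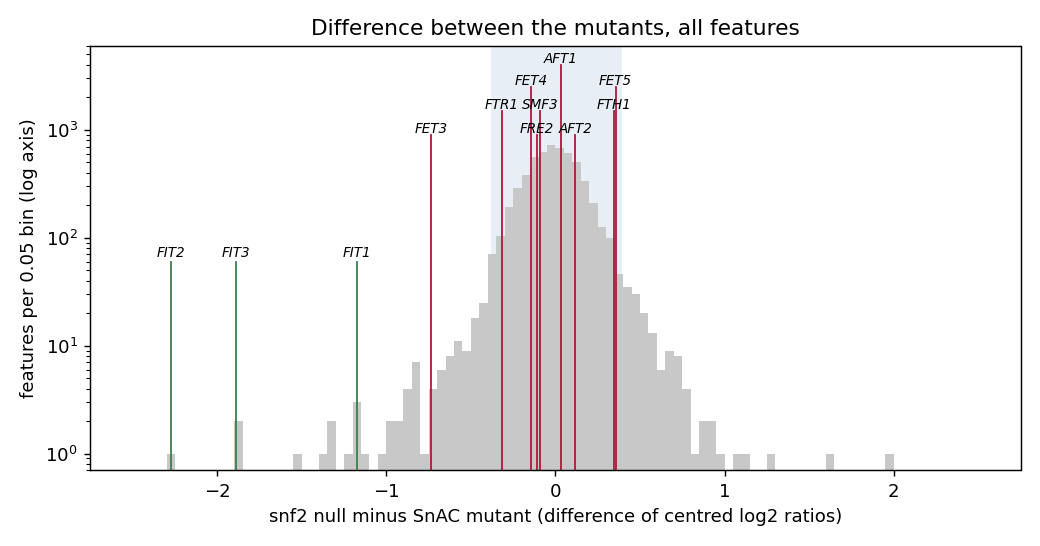
Histogram of the null minus the SnAC mutant in centred log2 ratio (x axis) over 5790 features, with the number of features per bin on a log axis and the central 95% shaded. Red lines mark the 9 iron uptake and Aft genes measured in both mutants, with FET3 at -0.735 outside the shaded range, and green lines mark FIT1, FIT2 and FIT3 further to the left.

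FET4 (YMR319C), the transporter of low affinity, read high on every array. It read 0.55 in the null and 0.70 in the SnAC mutant, and also 0.27 on the BY4741 array and 0.37 on the Snf2-2FLAG array. It lay above 95.1% and 97.7% of features in the mutants and above 96.4% and 94.1% on the wild-type arrays. These shares are within each array, and the arrays differed in spread. The SD of features was 0.44 in the null and 0.36 in the SnAC mutant, against 0.16 and 0.25 on the wild-type arrays. In both mutants FET4 lay above the central 95% of the self-hybridisation of the same background. With the wild-type array subtracted, FET4 read 0.28 in the null and 0.32 in the SnAC mutant.

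The vacuolar genes FET5 (YFL041W), for the oxidase, and FTH1 (YBR207W), for the permease, lay close to each other on every array. FET5 read 0.67 in the null and 0.31 in the SnAC mutant, against -0.10 on the BY4741 array and 0.14 on the Snf2-2FLAG array. FTH1 read 0.55 in the null and 0.20 in the SnAC mutant, against -0.10 and -0.02. Both genes were highest in the null, at 1.59-fold and 1.46-fold, and the values of the pair differed by at most 0.16 on any array. As deposited, both lay below 0 in the SnAC mutant, at -0.08 for FET5 and -0.20 for FTH1. Subtracting the BY4741 array left 0.76 for FET5 and 0.64 for FTH1 in the null.

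The vacuolar and surface complexes stood apart in the null. FET3 was 0.84 below FET5 there, and FTR1 was 0.83 below FTH1. On the BY4741 array the same distances were 0.20 and 0.12. In the SnAC mutant FET3 was 0.25 above FET5, and FTR1 was 0.17 below FTH1. FET3 and FET5 are related in sequence, as are FTR1 and FTH1, and how far a probe of one reads the other was not tested.

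SMF3 (YLR034C), the vacuolar exporter, was above the array median in both mutants. It read 0.20 in the null and 0.29 in the SnAC mutant, against 0.08 and -0.06 on the wild-type arrays. In the mutants it lay above 77.9% and 88.4% of features. With the wild-type array of its background subtracted, SMF3 read 0.12 in the null and 0.35 in the SnAC mutant. Its mutant values lay inside the central 95% of the self-hybridisations, and its value in the SnAC mutant as deposited was -0.10.

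In centred values, the transcripts of the regulators were near the array median in both mutants. AFT1 (YGL071W) read 0.07 in the null and 0.04 in the SnAC mutant, against -0.24 on the BY4741 array and 0.17 on the Snf2-2FLAG array. The mutant values of AFT1 were therefore closer to 0 than those of the wild-type hybridisations. AFT2 (YPL202C) read -0.04 in the null and -0.16 in the SnAC mutant, against 0.02 and -0.02. With the wild-type array of its background subtracted, AFT1 was at 0.30 in the null and -0.14 in the SnAC mutant, so it lay on opposite sides. As deposited it was at 0.07 and -0.36.

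Ordered by ratio in the null, the genes ran from FRE2 through FRE3, FTR1, FET3, AFT2, AFT1, SMF3, FTH1 and FET4 to FET5. Of the 9 gaps between neighbours in this order, 3 exceeded 0.142, the SD of the BY4741 array estimated from its median absolute deviation. These were the gaps between FRE2 and FRE3, between FRE3 and FTR1, and between SMF3 and FTH1. In the SnAC mutant the order was FRE2, AFT2, FTR1, AFT1, FTH1, SMF3, FET5, FET3 and FET4, and 2 of 8 gaps exceeded 0.221, the same estimate for the Snf2-2FLAG array. The other gaps were within that SD. It describes single values, and a gap is a difference of 2 values, which spreads more widely. A gap above the SD therefore does not show that the genes differ. Outside the central 95% of the BY4741 array lay 5 of 10 genes in the null, where 26.3% of all features did. They were FET4, FET5 and FTH1 above it and FRE2 and FRE3 below it. In the SnAC mutant 3 of 9 genes, FET3, FET4 and FRE2, lay outside the central 95% of the Snf2-2FLAG array, against 7.71% of all features.

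Between the mutants, 7 of 9 genes lay on the same side of the array median, and Pearson's r over these 9 genes was 0.74. Over 5790 features it was 0.88. Genes on the same arrays share their hybridisation, so both coefficients only describe these arrays. FET3 and FTR1 lay on opposite sides after centring. As deposited FTR1 was below 0 in both mutants, and with the wild-type arrays subtracted FET3 was above 0 in both, at 0.12 and 0.39. The differences of FET5 and FTH1, 0.355 and 0.349 higher in the null, lay inside the central 95% of all features as centred, and 96.9% and 96.8% of features had a lower one. With the wild-type arrays subtracted, FTH1 remained inside that range and FET5 did not.

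**Figure D3:**
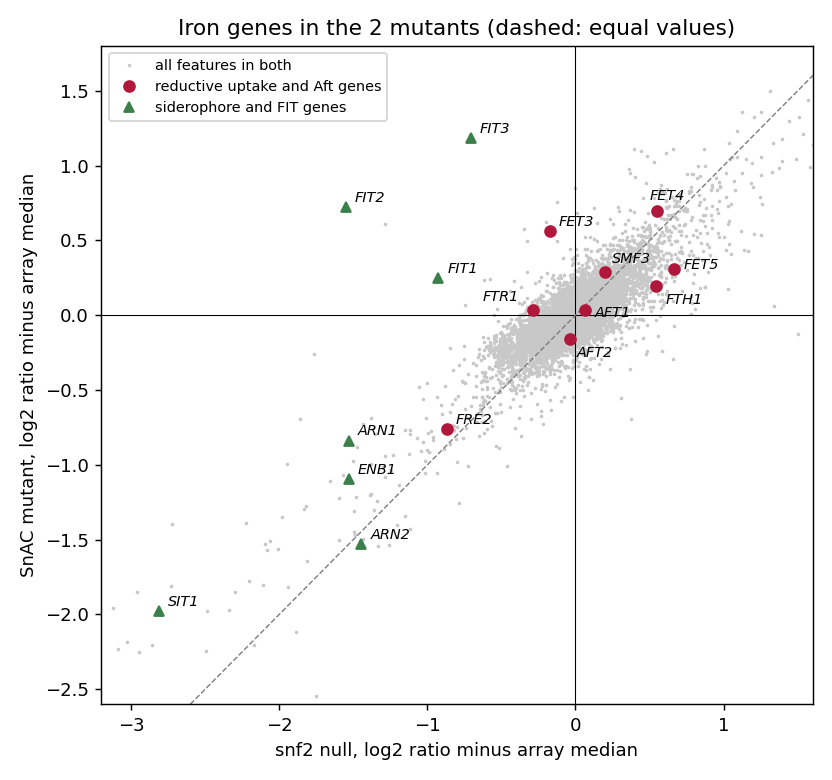
Centred log2 ratio in the null (x axis) against the SnAC mutant (y axis), with all features measured in both as grey points, the 9 reductive uptake and Aft genes in red and the siderophore and FIT genes in green. The axes leave out the most extreme features, and FRE2 lies near the line of equal values. FET3 lies above the line, as does every siderophore and FIT gene except ARN2.

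Other genes of iron handling were taken from lists to set the 10 genes beside the rest of the pathway. The siderophore transporters and the FIT mannoproteins, which hold siderophore iron in the cell wall, lay at a median of -1.53 in the null, and 5 of 7 were at least 2-fold lower, against 1.59% of all features. In the SnAC mutant 3 of 7 were lower, against 1.19%, and 1 was higher, against 0.866%, with a median of -0.84. The higher gene was FIT3 at 1.18, which read 0.79 as deposited. SIT1, a siderophore transporter, read -2.81 and -1.98, ARN2 read -1.45 and -1.53, and ARN1 read -1.53 and -0.84. FIT2 read -1.55 in the null and 0.72 in the SnAC mutant, or 0.33 there as deposited, and its difference of -2.27 was the lowest of all 5790 features. FIT3 and FIT1, named after their values were seen, had differences of -1.89 and -1.18 and ranked 3 and 9 from the lowest. The wild-type arrays differed in the same direction for FIT2, with BY4741 at -0.515 and Snf2-2FLAG at 0.08, and with them subtracted the difference was -1.68. For this list 6 of 7 genes lay below the central 95% of the difference, where 2.5% of all features did. With the wild-type arrays subtracted 4 of 7 did, SIT1, FIT1, FIT2 and FIT3, and FET3 was inside the range.

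None of the 6 genes of copper uptake and delivery, which serve the copper loading of Fet3, passed 2-fold in either mutant after centring. Past 2-fold lay 2.85% of all features in the null and 2.05% in the SnAC mutant. A list this short with none is near that background. The medians of the 6 genes were -0.10 in the null and -0.01 in the SnAC mutant. CTR1, the high-affinity copper transporter, was the lowest of them at -0.64 in both, or -1.035 in the SnAC mutant as deposited, and was named after its values were seen. ATX1 and CCC2, which carry copper to Fet3, read -0.06 and -0.14 in the null and -0.03 and -0.06 in the SnAC mutant.

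None of 8 other targets of the Aft factors passed 2-fold in either mutant after centring, against 2.85% and 2.05% of all features. This count is near the background. The medians of the 8 genes were -0.04 and 0.10. Their values ran from -0.96 to 0.96 in the null and from -0.82 to 0.60 in the SnAC mutant. ISU1, a scaffold for iron-sulphur clusters, was highest in the null at 0.96, and MRS4, which brings iron into mitochondria, read 0.66 and 0.60. BIO5, a transporter of a biotin precursor, was lowest at -0.96 and -0.82, and read -1.208 in the SnAC mutant as deposited. TIS11 read -0.82 and -0.36. In the null minus the SnAC mutant, TIS11 at -0.461 lay below the central 95% of features and ISU1 at 0.408 above it. They were the 1 gene below and the 1 gene above among 8, where 5.01% of all features lay outside. With the wild-type arrays subtracted ISU1 was at 0.145, inside the range, and TIS11 had no value on the BY4741 array. The targets named here were picked once their values were known. The genes of iron sensing, 6 measured in the null and 5 in the SnAC mutant, also had none past 2-fold after centring. This is near the background of 2.85% and 2.05%, and their medians were 0.20 and 0.29.

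A further list held 4 genes that act on FET4 transcription, and left out AFT1 and AFT2, which are described above. The listed genes were ROX1 and MOT3, repressors of hypoxic genes, HAP1, which senses haem, and the zinc regulator ZAP1. Of these 4, ROX1 was at least 2-fold higher in the null, where 1.26% of all features were. ROX1 read 1.035 in the null and 0.63 in the SnAC mutant, against -0.28 and -0.09 on the wild-type arrays. The medians of the 4 genes were 0.50 and 0.47. HAP1 read 0.55 and 0.43, MOT3 read 0.45 and 0.50, and ZAP1 read 0.10 and -0.04. Whether any of them bears on the values of FET4 was not tested.

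The 5 genes of vacuolar, mitochondrial and divalent metal transport had medians of 0.23 and 0.38 with none past 2-fold. Of 16 listed genes of iron-sulphur cluster assembly 15 were measured, with medians of 0.01 and 0.09 and none past 2-fold. Haem synthesis had medians of -0.08 over 7 genes and 0.01 over 8, also with none. Over all features 2.85% passed 2-fold in the null and 2.05% in the SnAC mutant, so these counts are near the background. The 15 iron-dependent enzymes had their median at -0.03 in both mutants. CTT1, the cytosolic catalase, was past 2-fold in the SnAC mutant at 1.10, or within it at 0.70 as deposited. It was the 1 of 15 genes past 2-fold there, against 2.05% of all features. As a description of mating type, 3 of 6 a-specific genes in the null and 2 of 6 in the SnAC mutant were at least 2-fold lower, against 1.59% and 1.19% of all features. As deposited, 4 of 6 were in the SnAC mutant, against 2.46%. MFA1, for a-factor, read -1.66 and -1.11, MFA2 read -1.43 and -0.73, and BAR1, a protease that degrades alpha-factor, read -1.38 and -1.20. None of the 4 alpha-specific genes measured in the null or the 3 in the SnAC mutant passed, which is near the background.

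**Figure D4:**
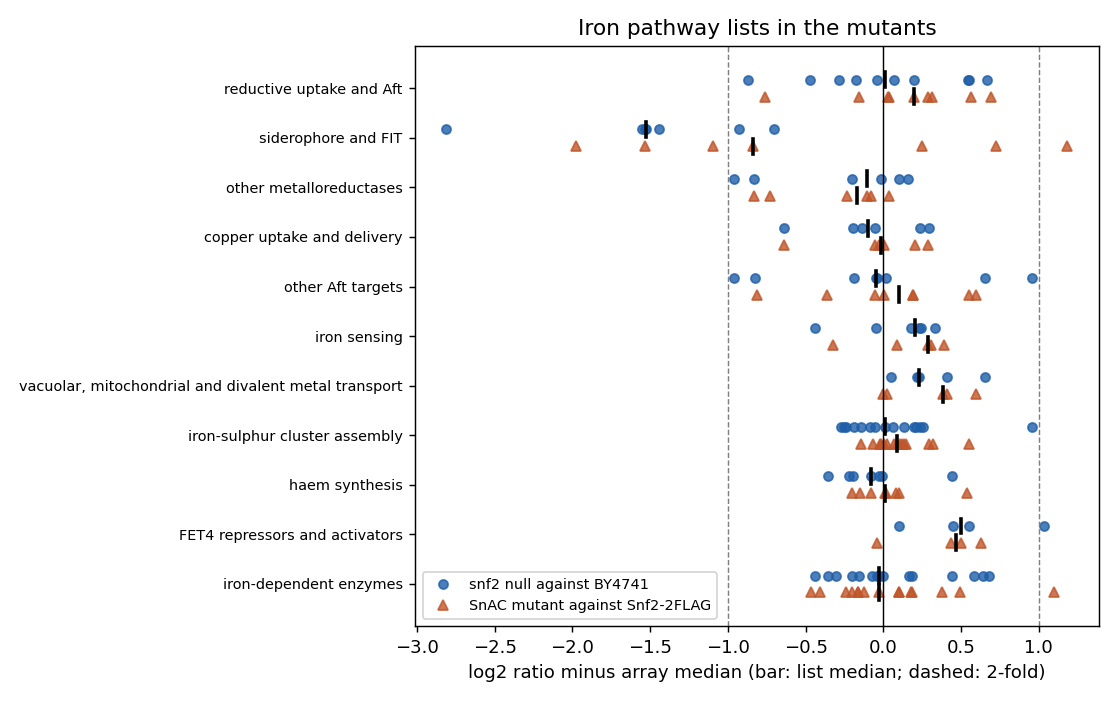
Centred log2 ratios (x axis) of the genes of each list (y axis) in the null (blue circles) and the SnAC mutant (orange triangles), with black bars at list medians and dashed lines at 2-fold. The reductive uptake and Aft genes lie within 2-fold, while the siderophore and FIT list has its median at -1.53 in the null.

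Genes next to the 10 genes on their chromosomes, in the gene order of the R64 reference, had 15 of 20 positions measured on each mutant array. Their medians were 0.05 in the null and 0.02 in the SnAC mutant. A single neighbour passed 2-fold, AAC1, for an ADP/ATP carrier, beside FET3. A count of 1 of 15 is near the background of 2.85% and 2.05% of all features. AAC1 read 2.34 in the null and 1.75 in the SnAC mutant and had no value on the wild-type arrays. FET3 itself read -0.17 and 0.56, so as centred these neighbours did not share a size or, in the null, a side. With the BY4741 array subtracted FET3 read 0.12 in the null, and AAC1 could not be read in that way. FIT2, which lies past 1 small reading frame from FRE3, read -1.55 in the null, where FRE3 read -0.475.

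Likeness of pattern was measured as the root mean square difference over the 4 arrays for the 3 genes with the largest size in a mutant, among 4656 named genes with a value on every array. FRE2 was nearest to EGT2, for a cell wall enzyme of cell separation, at 0.046, followed by VTC5 at 0.091 and SUT2 at 0.092. The median over all genes compared with FRE2 was 0.614. FET4 was nearest to YNL146W at 0.086, IZH1 at 0.115 and KNH1 at 0.117, where the median was 0.524. FET5 was nearest to AQY3 at 0.023, KNS1, for a protein kinase, at 0.040 and GID11 at 0.085, where the median was 0.406.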

How the data were processed

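Per the labels' protocols, poly(A) RNA was purified from total RNA, Bacillus subtilis transcripts were added as spike-ins by culture density, and cDNA was labelled with Cy3 and Cy5. The labels name a pair of scans of opposite dye orientation for each sample, and the deposited table holds 1 value per probe. The deposited values were read as log2 ratios of channel 1 over channel 2. Their base, centring, background correction and filters, and the use of the spike-ins, are not given in the sources used here. Direction follows the channel labels.

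The platform annotation named 1 gene for 5578 of 6226 probes and left 648 unnamed. A match in the R64 table of genes was found for 5573. It served for symbols and gene order only, since the values name no build. Each array was centred on the median of its probes and probes of a gene were averaged, giving 6195 features. Each of the 10 genes had 1 probe. With 1 sample per group no test was made, and a gene counted as passing when it was at least 2-fold from the array median. The number of arrays limits the precision. The 10 genes and the 12 lists were chosen with earlier results of these data known. The text names the 10 genes, SNF2, listed genes past 2-fold (at most 4 per list), neighbours past 2-fold, and the 3 most alike genes of the 3 genes with the largest size. Others are identified as chosen once their values were known, except ATX1 and CCC2, given as the partners of Fet3 in copper loading. HAP1, MOT3 and ZAP1 are given to complete the list that holds ROX1. Promoter motifs and protein identity were planned and not analysed here. Alternatives were folds of 1.5 and 3, no centring, a mean of the central 80%, subtraction of the wild-type array, features on all 4 arrays and the largest probe per gene. The central 95% of the wild-type arrays, the difference between the mutants after subtracting those arrays, and list counts as deposited were added after the data were seen. The size rule was tested on simulated data. Python 3.11.15, numpy 2.4.6, pandas 2.3.3 and matplotlib 3.10.9 were used.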

Additional observations from a re-analysis of the deposited data

How the results depend on the processing

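The count of 0 genes past 2-fold became 2 in each mutant at 1.5-fold, by the construction of the rule, and remained 0 at 3-fold. Counted against the central 95% of the wild-type array, a choice made after the data were seen, it became 5 in the null and 3 in the SnAC mutant. Of all features, 26.3% lay outside that range in the null and 7.71% in the SnAC mutant. Without centring, 1 gene, FRE2, passed in the SnAC mutant, and the median of the genes there turned from 0.20 to -0.196, because the median of that array is -0.393. In that setting 5 of 9 genes changed side: FTR1, FET5, FTH1, SMF3 and AFT1. Subtracting the wild-type array changed the side of FET3 in the null and AFT1 in the SnAC mutant, and left both counts at 0 and the medians at 0.12 and 0.175. Centring on the mean of the central 80%, using the 5134 features on all 4 arrays, or the largest probe per gene changed no side and no count. FRE3 is left out where all 4 arrays are required. No paired analysis was possible because there was 1 sample per group. No signal level is given, so a ratio near 0 may belong to a gene close to background.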

Other observations

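Of 15 enzymes that use iron, ACO1 and CTT1 lay outside the central 95% of the difference between the mutants. Over all features 5.01% lay outside, and both genes were picked after their values were seen. ACO1, the aconitase of the TCA cycle, read 0.59 in the null and -0.24 in the SnAC mutant, against -0.295 on the BY4741 array and -0.60 on the Snf2-2FLAG array. The difference of 0.83 was higher than that of 99.8% of features. With the wild-type arrays subtracted it was 0.52, higher than 95.8%, and inside the central 95%, which ended at 0.579. CTT1 went the other way, at 0.44 in the null and 1.10 in the SnAC mutant, a difference of -0.66 that all but 0.639% of features exceeded. With the wild-type arrays subtracted it was -0.71, and CTT1 was the 1 of 15 genes then outside, against 5.03% of all features.

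On the BY4741 array, where both channels held the same strain, 4 of the 10 iron uptake and Aft genes, FET3, AFT1, FTR1 and FRE2, lay in the lowest 10% of features. On the Snf2-2FLAG array none of 9 did, and AFT1, FET3 and FRE2 read 0.17, 0.17 and 0.22. On both wild-type arrays, 2 of 9 genes lay on the same side of the array median, against 59.3% of 5407 features.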
